A study of Mus musculus with 12 samples.

Results

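Long terminal repeats (LTRs) are the ends of endogenous retroviruses and related retrotransposons, and the windows described here are sites of mouse microglia, taken by the authors from a list that the file header places under ATAC (open chromatin), whose centre was annotated to such a repeat. A window was taken when the deposited annotation placed it in an intron or in intergenic sequence and named a repeat of class LTR. This left 3671 windows, which are 7.39% of the 49652 intron and intergenic windows and 5.41% of all 67822 windows. They fell into the families ERVL-MaLR (2285 windows), ERVK (651), ERVL (461) and ERV1 (244). A further 30 windows carried the labels Gypsy, LTR without a family, or an uncertain family.

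H3K27ac, acetylation of lysine 27 of histone H3, was measured by chromatin immunoprecipitation and sequencing in CD11b-positive microglia isolated with magnetic beads from mouse forebrain. The 4 groups of 3 libraries were H3K27ac of Nlrp3 knockout mice (the Cias1 knockout line from Millennium Pharmaceuticals), H3K27ac of wild-type C57BL/6N mice, and 2 groups of input, sheared chromatin of either genotype without the antibody step. Nlrp3 encodes the sensor of an inflammasome, and the series title names glutaminolysis driven by it in microglia in Alzheimer's disease. No age or sex is used here, and the labels name no further allele or agent. Nothing in them says that the libraries of a group came from separate animals, so the p-values measure the spread between libraries. That spread may be technical, though chromosome Y tags (below) set wild-type replicate 1 apart from replicates 2 and 3.

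Sequencing gave 3726550 to 5028129 tags in an H3K27ac library. LTR windows took 66011 to 88247 of these, and the median LTR window 9 to 12. Input libraries held 3287009 to 6961590 tags, with a median of 2 to 5 per LTR window. At 1 of 2 Nlrp3 promoter windows, 52 bp from the transcription start site (TSS), the knockout H3K27ac libraries had 1, 0 and 16 tags, against 180, 180 and 195 in wild type, and the knockout input libraries had 0, 0 and 0 tags, against 10, 5 and 3. In that window the log2 fold change was -5.19 (SE 0.50, edgeR adjusted p = 4.88e-06). The other window, 49 bp from the TSS, had 17, 20 and 43 H3K27ac tags in the knockout, against 138, 91 and 119 in wild type. Its log2 fold change was -2.31 (SE 0.36, edgeR adjusted p = 0.00338). Wild-type replicate 1 stood apart in 1 respect: in the 3 promoter windows of chromosome Y its tag count was 0, while every other H3K27ac library reached 183 to 239. Its input also had 0, against 2 to 13 in the other inputs. Wild-type replicate 1 thus did not share its source material with wild-type replicates 2 and 3. The promoters of all 27 homeostatic microglia genes examined carried tested windows, at a median of 11.9 times input in the knockout, against 10.8 times in wild type. Markers of monocytes and neutrophils, lymphocytes and astrocytes had no promoter window, and those of border macrophages, neurons, oligodendrocytes and endothelial cells had 2, 1, 3 and 3, at medians of 1.46 to 2.95 times input in the knockout and 1.01 to 2.41 times in wild type. The highest of these were an Mbp window (myelin basic protein), with 26, 37 and 12 tags or 6.13 times input in the knockout, against 4, 11 and 13 tags or 2.41 times in wild type (log2 fold change 1.18, SE 0.68, edgeR adjusted p = 0.998), and a Pecam1 window (an endothelial adhesion molecule), at 5.31 and 3.78 times. The summed level of the border macrophage windows was 1.59 to 6.09 CPM (tags per 1000000 library tags) in knockout libraries, against 0.472 to 3.34 CPM in wild-type ones, and the part of these cells in the results was not tested.

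An LTR carries the promoter and enhancer sequences of the element that it flanks, so a solitary LTR left in the genome can act as a regulatory sequence for neighbouring genes. In most mouse tissues these elements are held silent by TRIM28 with KRAB zinc finger proteins, the H3K9 methyltransferase SETDB1 and DNA methylation, and some LTRs have been co-opted as enhancers in immune cells. Many ERVL-MaLR elements (the MT, ORR1 and MLT1 groups) lack retroviral proteins of their own, ERVK includes the IAP elements that can still transpose in mice, and MT2 LTRs flank MERVL, an ERVL element active in early embryos. PU.1 and IRF8 are lineage factors of microglia, AP-1 is a dimer of FOS and JUN proteins, and their motifs were looked for in the sequences below.

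Sequence was read where a RefSeq TSS lay inside an LTR window, since there a transcript start was annotated within the site. Of 32851 RefSeq promoters (build GRCm38.p6, the same as mm10), 64 promoters of 59 genes started in 59 LTR windows, 1.61% of the LTR windows. The 59 genes were 55 long noncoding RNA genes and 4 protein-coding genes (Tmem144, Rbm19, Zscan2 and Smim14). The LTR at the window centre need not cover the whole promoter stretch. The first 3 promoters printed carried strong H3K27ac in an ERVL, an ERVK and an ERV1 window, the next 3 held a PU.1 or ETS-IRF match, and the last lay in a window with a low unadjusted p between genotypes. Each stretch runs from 250 bases before to 50 bases after the start, 5′ to 3′ on the gene's strand, and capitals mark a motif match on either strand.

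Gm42376 lies at chr7:30394806-30395105 on the minus strand, in an LTR33A window 19209 bp upstream of Tyrobp, Gm40930 at chr13:44504378-44504677 on the plus strand in an RLTR12BD_Mm window, and Gm40645 at chr10:51526214-51526513 on the minus strand in an LTRIS2 window nearest Lilrb4a. Gm46220 lies at chr10:38059091-38059390 on the plus strand in an RLTR10D2 window, Gm34586 at chr13:113660570-113660869 on the plus strand in an RLTR31B2 window, Gm31003 at chr14:114865004-114865303 on the plus strand in an LTR41B window, and Gm36857 at chr2:71597942-71598241 on the plus strand in an MLT1N2 window in an intron.
Gm42376: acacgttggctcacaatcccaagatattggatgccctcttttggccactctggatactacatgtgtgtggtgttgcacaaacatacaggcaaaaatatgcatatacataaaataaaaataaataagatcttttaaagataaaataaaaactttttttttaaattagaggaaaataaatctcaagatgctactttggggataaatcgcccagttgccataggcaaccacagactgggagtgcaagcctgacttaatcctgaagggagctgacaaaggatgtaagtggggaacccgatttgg
Gm40930: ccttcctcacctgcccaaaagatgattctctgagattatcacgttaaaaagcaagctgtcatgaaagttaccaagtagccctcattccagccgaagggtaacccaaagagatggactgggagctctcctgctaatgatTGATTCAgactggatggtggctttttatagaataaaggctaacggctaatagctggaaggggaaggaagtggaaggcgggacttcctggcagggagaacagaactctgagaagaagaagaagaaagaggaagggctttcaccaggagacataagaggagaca
Gm40645: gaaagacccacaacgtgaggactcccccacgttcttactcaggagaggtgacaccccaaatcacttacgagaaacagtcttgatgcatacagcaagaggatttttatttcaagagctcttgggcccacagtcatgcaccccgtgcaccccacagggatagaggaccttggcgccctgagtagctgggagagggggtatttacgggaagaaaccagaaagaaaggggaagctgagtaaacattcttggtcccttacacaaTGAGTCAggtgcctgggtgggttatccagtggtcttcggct
Gm46220: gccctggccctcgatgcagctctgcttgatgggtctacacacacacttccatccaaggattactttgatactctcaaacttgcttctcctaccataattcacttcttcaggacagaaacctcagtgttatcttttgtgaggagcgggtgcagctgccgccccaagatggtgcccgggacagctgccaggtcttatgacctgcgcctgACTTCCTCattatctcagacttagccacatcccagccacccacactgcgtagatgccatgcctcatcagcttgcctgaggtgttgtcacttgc
Gm34586: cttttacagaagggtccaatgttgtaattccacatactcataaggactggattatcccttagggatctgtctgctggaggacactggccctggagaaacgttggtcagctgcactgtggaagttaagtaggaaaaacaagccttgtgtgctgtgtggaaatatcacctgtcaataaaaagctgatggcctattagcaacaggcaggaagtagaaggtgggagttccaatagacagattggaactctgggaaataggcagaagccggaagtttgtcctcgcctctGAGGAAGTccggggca
Gm31003: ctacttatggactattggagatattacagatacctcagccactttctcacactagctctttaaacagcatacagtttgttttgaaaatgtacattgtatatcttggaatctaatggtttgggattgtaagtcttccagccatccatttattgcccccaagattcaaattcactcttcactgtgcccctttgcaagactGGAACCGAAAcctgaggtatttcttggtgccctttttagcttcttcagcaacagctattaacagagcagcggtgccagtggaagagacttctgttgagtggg
Gm36857: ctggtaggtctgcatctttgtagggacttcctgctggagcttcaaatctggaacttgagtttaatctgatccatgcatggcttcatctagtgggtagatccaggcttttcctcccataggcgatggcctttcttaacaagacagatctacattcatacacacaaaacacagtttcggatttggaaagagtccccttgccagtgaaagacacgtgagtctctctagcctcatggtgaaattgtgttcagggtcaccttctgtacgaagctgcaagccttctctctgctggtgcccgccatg

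The window with the Gm42376 start had 222, 270 and 157 H3K27ac tags in the knockout libraries and 152, 135 and 170 in wild type, so the groups overlapped. The Gm40930 window, whose promoter holds an AP-1 match, had 177, 244 and 137 tags in the knockout, against 107, 122 and 166 in wild type. The Gm40645 window, also with an AP-1 match, had 104, 110 and 87 tags in the knockout, against 63, 138 and 75 in wild type. None of the 3 was called, and all lay above 10 times input in both genotypes. The Gm46220 window, with a PU.1 match, had 51, 70 and 76 tags in knockout libraries, against 35, 46 and 17 in wild-type libraries. The genotypes overlapped there on the library sizes of the edgeR fit, but not as tags or as CPM. The log2 fold change of this window was 0.79 (SE 0.39, edgeR adjusted p = 0.998). The Gm36857 window was lower in the knockout, with 16, 12 and 0 tags against 22, 40 and 51, and its log2 fold change was -2.23 (SE 0.67, edgeR adjusted p = 0.629). Neither difference passed the test. The Gm34586 window, also with a PU.1 match, had 45, 47 and 37 tags in knockout libraries, against 31, 42 and 34 in wild-type libraries. The Gm31003 window, with an ETS-IRF match, had 68, 29 and 80 tags in knockout libraries, against 53, 62 and 50 in wild-type libraries. Both overlapped between genotypes.

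Over the 64 promoters, 9 (14.1%) held the PU.1 motif GAGGAAGT, beside 3.20% of all RefSeq promoters. The ETS-IRF composite motif stood in 7 (10.9%), against 2.72%, where alternative starts of Gm31003 and Gm35363 count the same stretch again and the genes number 5, and the AP-1 motif TGANTCA in 11 (17.2%), against 7.81%. For the interferon-stimulated response element the shares were 4.69% and 3.44%, for the C/EBP motif TTGCNNCAA 1.56% and 2.08%, and for the cyclic AMP response element TGACGTCA 1.56% and 1.79%. All motifs were searched on both strands, and matches of the ETS-IRF motif can overlap those of PU.1 and of the interferon-stimulated response element. The median GC content was 47.7% in the promoters within LTR windows and 52.7% in all promoters, and its part in the motif shares was not tested. The 64 promoters lay in sites from the open chromatin list, while the full RefSeq set was not limited to such sites. Promoters in accessible windows outside LTRs were not compared, so the part of accessibility in the motif shares was not tested either. The filter on low counts kept 34 of the 59 windows. An unadjusted p under 0.05 was found in 2 of them, beside 4.69% of all windows tested, and 0 were called, beside 0.0595%.

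The LTR windows lay farther from genes than the remaining intron and intergenic windows, called the other distal windows below. Their median distance to the nearest TSS was 21.4 kb, against 17.0 kb, and 42.5% of them were intronic, against 59.8%. ERVL-MaLR windows were the most intronic of the 4 large families (47.5%) and ERV1 windows the least (29.9%). A TSS was less than 10 kb away for 1011 LTR windows and more than 100 kb away for 396. There were 59 windows on chromosome X, 1 on chromosome Y and 10 on unplaced sequence. A total of 472 windows overlapped their predecessor, so that some of their tags were counted in both.

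The windows were spread over 373 repeat names, of which 103 had 1 window and 63 had 10 or more. The most frequent names were MTD (368 windows), ORR1E (334), ORR1D2 (172), ORR1F (154), MTC (134) and MTEa (104), all ERVL-MaLR. By name groups, LTRs called ORR1 made up 927 windows, MT 851, MLT1 410, RMER 388 and RLTR 336, and internal parts of elements 263. Among names with evolutionarily young elements, those of IAP had 15 windows with internal parts included, and those of MERVL had 8. Tags from near-identical copies may have been placed or dropped by the authors' alignment in a way not given in the sources used here. The values of names with such copies are uncertain. Which other names hold them was not examined, RLTR45, LTRIS_Mus and ERVB4_1-I_MM-int (below) included.

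Relative to total tags, H3K27ac stood above input at the typical LTR window, and a little below the other distal windows (with TMM factors, given further on, the LTR median turned below 0 on the log2 scale). The ratio of H3K27ac to input, on mean CPM with 0.5 added, had a median over LTR windows of 2.37 in the knockout, against 2.21 in wild type. Over the other distal windows it was 2.74 and 2.51, in the same order of genotypes. LINE windows had 2.60 and 2.42, SINE windows 2.28 and 2.07, and promoter windows 5.99 and 5.45. Within the LTR class ERVK windows had the highest medians of the large families (2.79 in the knockout, 2.53 in wild type) and ERVL windows the lowest (2.23 and 2.09). ERV1 windows had 2.72 and 2.41, and ERVL-MaLR windows 2.31 and 2.15. The 15 Gypsy windows had 1.12 and 1.64. Median H3K27ac over LTR windows was 2.30 CPM in the knockout, against 2.26 CPM in wild type, and median input 0.696 and 0.787 CPM. Over the other distal windows the medians were 2.65 and 2.59 CPM for H3K27ac and 0.665 and 0.753 CPM for input. The part of the input in the genotype differences of these ratios, and of those below, was not tested.

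**Figure D1:**
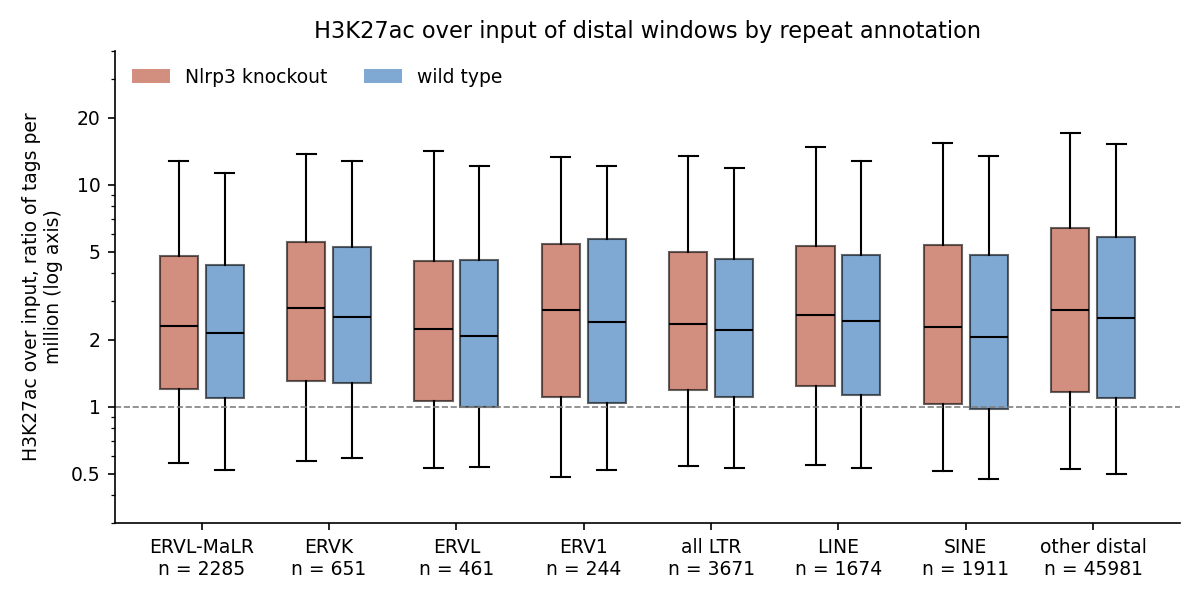
Ratio of H3K27ac to input CPM (log axis) over distal windows, by LTR family and for LINE, SINE and all other distal windows, knockout left of wild type. Boxes show the median and quartiles over windows and whiskers the 5th and 95th percentiles, and the median over all LTR windows is 2.37 in the knockout and 2.21 in wild type, below the 2.74 and 2.51 of the other distal windows.

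The spread within each family was far wider than the distance between families. Over all LTR windows the quartiles of the ratio were 1.19 and 4.97 in the knockout, against 1.11 and 4.62 in wild type. Of the 3671 windows, 911 (24.8%) reached 5 times input in the knockout and 838 (22.8%) in wild type, against 31.8% and 29.1% of the other distal windows. At 10 times input the counts were 332 (9.04%) and 255 (6.95%), against 14.0% and 11.9%. At the low end 718 windows (19.6%) lay below input in the knockout and 793 (21.6%) in wild type, against 20.5% and 22.2% of the other distal windows. The 367 windows with the most tags held 44.4% to 44.9% of the LTR tags in each knockout H3K27ac library and 43.6% to 45.1% in each wild-type one, against 24.8% to 29.9% in the input libraries. Intronic LTR windows had medians of 2.65 in the knockout, against 2.41 in wild type, and intergenic ones 2.19 and 2.03. The other distal windows differed between introns (3.20 and 2.90) and intergenic sequence (2.07 and 1.95) in the same direction.

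Among name groups with over 100 windows the RMER LTRs, most of them ERVK, had the highest medians, at 3.01 times input in the knockout, against 2.97 in wild type over 388 windows. The ORR1 LTRs had 1.99 and 1.89 over 927 windows and the MT LTRs 2.64 and 2.31 over 851. The old mammalian MLT1 LTRs had 2.47 and 2.27. Internal parts had 2.16 and 2.21. These medians were not tested against each other, since the windows of a group share sequence and come from the same libraries.

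The windows were then tested for H3K27ac against input over all 12 libraries with edgeR, with genotype in the model and library sizes set to total tags. Of 3671 LTR windows 1960 passed the filter, mostly through their H3K27ac tags, and 1855 of these were called higher and 13 lower, beside a background of 96.8% and 0.48% of all 40663 windows tested. Without the filter 1940 of the 3671 LTR windows (52.8%) were called higher and 95 lower, against 61.1% higher and 3.0% lower of all windows and 56.5% higher of the other distal windows. By family the share called higher without the filter was 58.5% for ERVK, 54.9% for ERV1, 51.6% for ERVL-MaLR and 51.0% for ERVL. The scaling decides these counts: with TMM factors, which centre the typical window on 0, the median log2 ratio of all windows tested moved to -0.03, against 3.14 by total tags. On that scale the LTR median was -0.48, against 2.68 by total tags. Of the 1960 LTR windows tested 224 were then called higher and 372 lower, beside 8299 higher and 4631 lower of all 40663.

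Tags were also summed by repeat name. Of 618 repeat names of all classes tested, 93.2% were called higher in H3K27ac than in input and 1.94% lower, and of the 323 LTR names 301 were called higher and 4 lower. Without the filter on low counts 305 of 373 LTR names were called higher and 3 lower, beside 586 and 14 of all 715 names. Over the 63 LTR names with 10 or more windows the log2 ratio of H3K27ac to input ran from 1.24 to 3.36, with a median of 2.52. The highest were LTR33A (3.36, SE 0.14, 10 windows), MLT1D (3.22, SE 0.11, 29 windows), RMER20B (3.22, SE 0.12, 12 windows), LTR33 (3.19, SE 0.12, 21 windows) and RMER17C (3.17, SE 0.13, 14 windows). In LTR33A 46.0% of the H3K27ac tags came from its strongest window, the one near Tyrobp. The lowest were LTR41B (1.24, SE 0.16), RLTR14 (1.48, SE 0.16), LTR41 (1.69, SE 0.16), MLT1I (1.82, SE 0.15) and LTR50 (1.89, SE 0.18). With TMM factors the 5 highest stayed above 0, at 0.57 to 0.76, and the 5 lowest turned below 0, at -1.35 to -0.70. The frequent names lay between, with 2.58 for MTD and 2.35 for ORR1E.

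**Figure D2:**
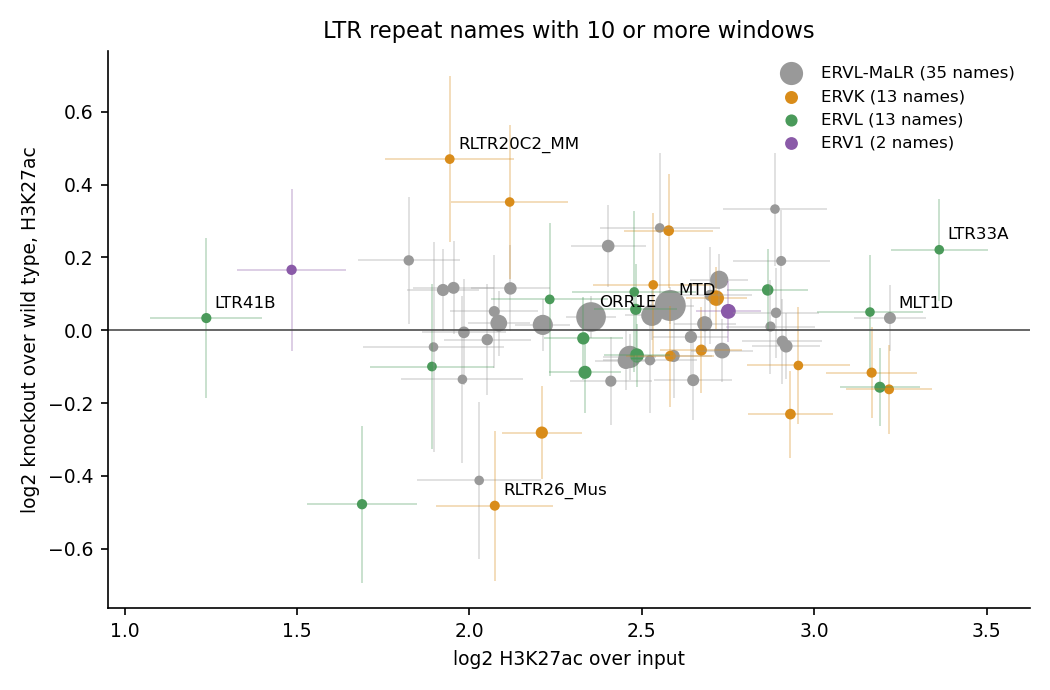
Each point is 1 of the 63 LTR repeat names with 10 or more windows, with the log2 ratio of H3K27ac to input on the horizontal axis and the log2 ratio of knockout to wild-type H3K27ac on the vertical axis, bars showing the standard error and point size the number of windows. The names spread from 1.24 to 3.36 along the horizontal axis and from -0.48 to 0.47 along the vertical axis, and 0 of them were called between genotypes.

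The 3 windows with the most H3K27ac in each large family are described next. In ERVK the window with the most H3K27ac was an MLTR18D_MM element at chr2:129379896-129380896, intergenic, 9257 bp upstream of the nearest TSS, that of Il1b, which encodes the cytokine IL-1 beta that the NLRP3 inflammasome matures. It had 289, 249 and 236 tags in the knockout libraries and 222, 274 and 249 in wild type, with 10, 6 and 3 tags in knockout input and 8, 5 and 4 in wild-type input. The genotypes overlapped, at 29.9 times input in the knockout, against 33.3 times in wild type. In ERVL-MaLR an ORR1F window at chr9:123928372-123929372, 39820 bp from Ccr1, a chemokine receptor gene, had 226, 233 and 335 tags in the knockout, against 182, 222 and 238 in wild type. An ORR1E window on chromosome 6 nearest 4930479D17Rik had 219, 239 and 251 tags in the knockout, against 222, 227 and 229 in wild type. At the MLT1D window nearest Mir187 the tags were 254, 245 and 186 in the knockout, against 194, 229 and 245 in wild type. These 4 windows overlapped between genotypes in every case.

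In ERVL the strongest windows were a MER21B element 116446 bp from Nudt4, the LTR33A element upstream of Tyrobp, and a MERVL_2A-int element in an intron of Zfp1. Tyrobp encodes the adaptor DAP12, which signals for TREM2 in microglia. Its LTR33A window, at chr7:30394079-30395079, stood at 44.9 ± 11.5 CPM in the knockout, against 37.0 ± 6.03 in wild type (SD, n = 3 each), which is 22.4 and 18.8 times input. The MERVL_2A-int window had 151, 165 and 176 tags in the knockout, against 173, 159 and 144 in wild type. In ERV1 they were RLTR24 in an intron of Ppcdc, RLTR14_RN in an intron of Dgkd (nearest TSS Gm19582), and an LTRIS_Mus window on the unplaced sequence JH584304, which held high input as well. The other two ERVK windows were RLTR44B, 156685 bp from Hapln1, and RMER16C near Tnfrsf14. None of the 12 strongest windows was called between genotypes.

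Further LTR windows lay nearest to genes that mark homeostatic microglia, a choice made after their values were seen. There were 23 of them, nearest to 12 of the 27 genes. An MTC and an MLT1M window in the same intron of Inpp5d, a lipid phosphatase gene and Alzheimer's disease risk locus, stood at 20.6 and 19.7 times input in knockout microglia and at 19.2 and 12.3 times in wild-type microglia. Their H3K27ac log2 fold changes were -0.19 (SE 0.22) and -0.10 (SE 0.29), and neither was called. The MLT1M window had 3, 1 and 3 input tags in the knockout, against 7, 7 and 2 in wild type. Overlapping MTD and MLT1L windows about 41 kb upstream of Runx1, a haematopoietic transcription factor, stood at 14.8 and 12.7 times in knockout microglia and at 20.8 and 16.1 times in wild-type microglia. The H3K27ac log2 fold changes of these Runx1 windows were -0.34 (SE 0.21) and -0.22 (SE 0.22), also not called. An RLTR14-int window in Siglech, a lectin gene of microglia, had 82, 123 and 56 tags in the knockout, against 75, 56 and 97 in wild type.

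The comparison the labels set, knockout against wild type in H3K27ac, was made with edgeR's quasi-likelihood test on all windows with Benjamini-Hochberg adjustment. Of the 3671 LTR windows 1940 passed the filter on low counts, and 2 of them (0.103%) were called, both lower in the knockout, beside 24 (0.0595%) of all 40370 windows tested. Of all windows tested 0.0347% were called lower and 0.0248% higher in the knockout. At an unadjusted p under 0.05 stood 125 LTR windows (6.44%), 61 higher and 64 lower in the knockout, beside 4.69% of all windows. The 3 libraries of one genotype lay entirely above those of the other in 114 LTR windows in which the knockout was higher and 127 in which it was lower, 12.4% together, beside 10.9% of all windows. The median log2 fold change over the tested LTR windows was 0.01, and 991 of 1940 (51.1%) were positive. In these bulk libraries fewer cells with the mark and less mark per cell cannot be told apart.

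**Figure D3:**
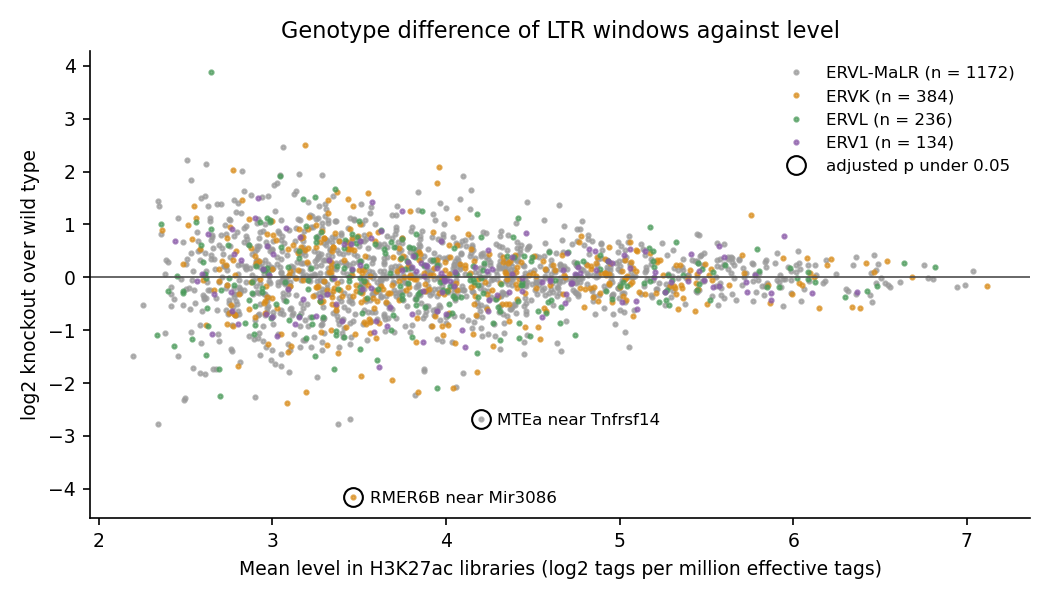
Each point is 1 of the tested LTR windows of the 4 large families, with its mean H3K27ac level (log2 CPM) on the horizontal axis and its log2 ratio of knockout to wild type on the vertical axis. The cloud is centred near 0 (median 0.01 over the 1940 windows tested), narrows with level, and the 2 circled windows passed an adjusted p of 0.05.

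No difference between families was tested. The share at an unadjusted p under 0.05 was 8.90% in ERVL, 6.77% in ERVK, 5.97% in ERVL-MaLR and 5.22% in ERV1. The median log2 fold change was -0.06 in ERVL, 0.00 in ERVK, 0.04 in ERVL-MaLR and -0.00 in ERV1. Positive values were found in 106 of 236 tested windows in ERVL (44.9%), 193 of 384 in ERVK (50.3%), 616 of 1172 in ERVL-MaLR (52.6%) and 67 of 134 in ERV1. Over 132 tested LTR windows from the site list of the knockout alone the median log2 fold change was 0.02, with 6 higher and 4 lower in the knockout at an unadjusted p under 0.05. Over 237 from the list of wild type alone it was 0.03, with 7 higher and 13 lower. Of 1595 other distal windows tested from the knockout list alone, 59 were higher and 19 lower at that threshold. Of 3233 from the wild-type list alone, 68 were higher and 118 lower. The knockout list alone gave 387 LTR windows, the wild-type list alone 631, and both lists 2653.

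The larger of the 2 differences was at an RMER6B element of the ERVK family, in intron 2 of 12 of Hspa12a (transcript NM_001327998) at chr19:58907680-58908680, with Mir3086 as the nearest TSS at 3579 bp. Hspa12a encodes an atypical member of the HSP70 chaperone family. The window had 0, 2 and 4 tags in the knockout libraries and 26, 34 and 39 in wild type, and came from the wild-type site list. All knockout libraries lay below all wild-type libraries. That is 0.403 ± 0.406 CPM in the knockout, against 7.92 ± 1.16 in wild type (SD, n = 3 each), a log2 fold change of -4.15 (SE 0.79, adjusted p = 0.0373). Input was low in both genotypes, with 4, 2 and 0 tags in the knockout, against 1, 2 and 2 in wild type, so the window stood at 1.01 times input in the knockout, against 9.26 times in wild type. The call was lost (adjusted p 0.119 to 0.312) without any 1 of the libraries except knockout replicate 3, and over all 6 omissions the log2 fold change stayed between -5.15 and -3.59. The 18 RMER6B windows summed differed by -0.07 (SE 0.14) on the log2 scale.

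The second was an MTEa element of the ERVL-MaLR family, intergenic, at chr4:154915007-154916007, 12570 bp from the TSS of Tnfrsf14, which encodes the receptor HVEM. It had 16, 9 and 3 tags in the knockout, against 38, 68 and 50 in wild type, again without overlap. Its log2 fold change was -2.69 (SE 0.52, adjusted p = 0.0378), at 2.33 times input in the knockout, against 9.55 times in wild type. Without any 1 library other than knockout replicate 1 the adjusted p was 0.0512 to 0.518, and with total-tag scaling it was 0.0554. Near the same gene, 1015 bp from the TSS, the RMER16C window at chr4:154928592-154929592 had 193, 271 and 149 tags in the knockout, against 142, 130 and 150 in wild type, a log2 fold change of 0.30 (SE 0.21). The 104 MTEa windows summed had a log2 fold change of 0.14 (SE 0.07, adjusted p = 0.676). Wild-type replicate 1, the library without tags at chromosome Y promoters, was also among these: without it the adjusted p was 0.143 for RMER6B and 0.109 for MTEa.

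**Figure D4:**
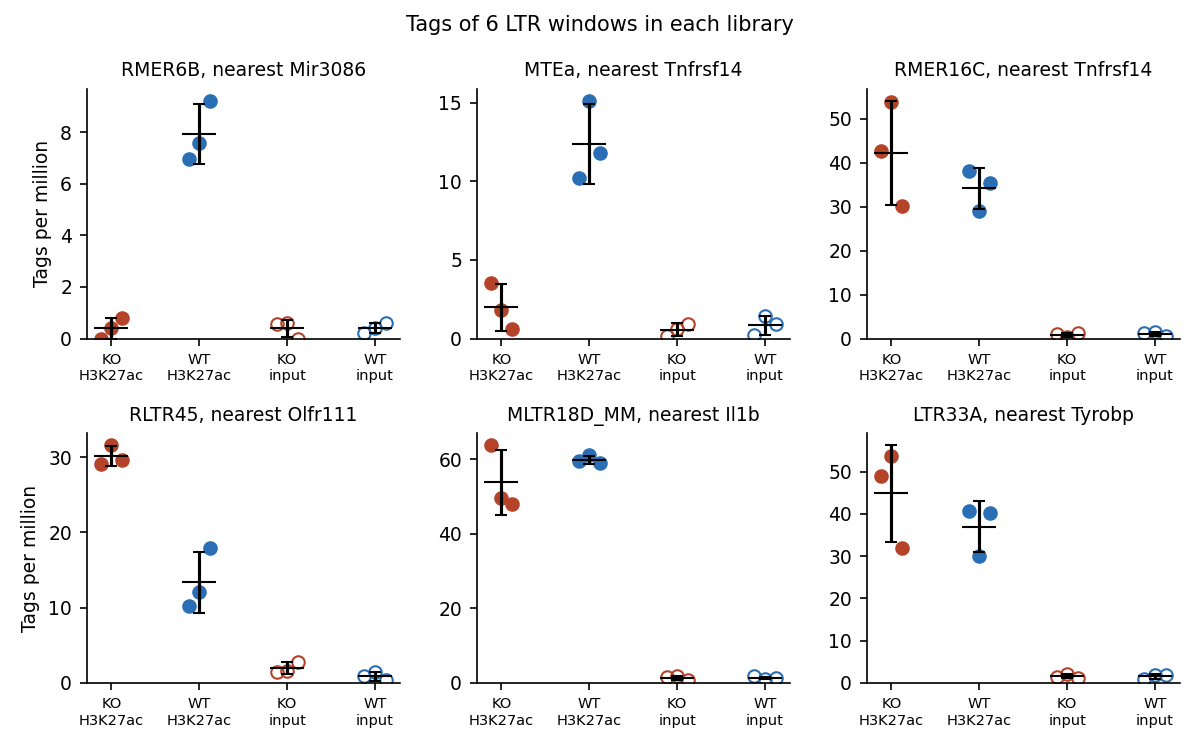
CPM of each library in 6 LTR windows, with knockout left of wild type for H3K27ac (filled) and input (open), and bars for the mean and SD of 3 libraries. The RMER6B and MTEa windows are lower in all knockout H3K27ac libraries, the RLTR45 window is higher in all of them, and the windows near Tnfrsf14 (RMER16C), Il1b and Tyrobp overlap between genotypes.

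Of the windows with the next lowest p, the RLTR45 element (ERVK) at chr17:37545947-37546947, 16490 bp from the olfactory receptor gene Olfr111, had 132, 159 and 146 tags in the knockout, against 38, 54 and 76 in wild type. The groups were far apart, with a log2 fold change of 1.17 (SE 0.26), yet the adjusted p was 0.148, and DESeq2 called it (adjusted p = 0.00472). The input moved the same way, with 1.92 ± 0.779 CPM in the knockout, against 0.857 ± 0.558 in wild type (SD, n = 3 each), so that the ratio to input was 12.7 in the knockout, against 10.2 in wild type. The part of the input in this difference was not tested. Of the LTRIS_Mus window on JH584304, which had a log2 fold change of 0.78 (SE 0.25, adjusted p = 0.75), the same can be said: its input held 80, 43 and 49 tags in the knockout, against 37, 39 and 37 in wild type, and the ratio to input was 2.53 and 1.99.

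The remaining windows of this set, which was chosen for low p and genotypes that do not overlap, did not pass the test either. Higher in the knockout were an MLT1F window 28728 bp from Cdkn2aipnl (61, 87 and 37 tags in the knockout, 17, 26 and 15 in wild type) and an MLT1H window in an intron of Rab37, 5080 bp from Cd300lf, a myeloid inhibitory receptor gene (74, 95 and 40 tags in the knockout, 32, 14 and 22 in wild type). Their log2 fold changes were 1.42 and 1.36. Lower in the knockout were MTD near Tex44 (-1.32), MLT1C near Ibtk (-1.40), RLTR44A in an intron of Map3k4 (-1.78), ORR1D1 in an intron of Lrch1 (-1.36) and ORR1C1 near Rcan3 (-1.46). The ORR1D1 window had 16, 27 and 20 tags in the knockout, against 49, 43 and 47 in wild type. DESeq2 called 6 LTR windows in all, beside 0.168% of all windows, including the 2 above, RLTR45, and 3 that were lower in the knockout: MLT1D nearest Irf8 (-2.10), ORR1E nearest Rerg (-2.81) and ORR1D2 nearest Trak1 (-2.71).

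Summed by repeat name, 0 of 608 names (0.0%) were called between genotypes in edgeR, 318 of them LTR names, and DESeq2 called 1. At an unadjusted p under 0.05 stood 24 LTR names, 9 higher and 15 lower in the knockout, beside 6.25% of all names. Over the 63 names with 10 or more windows the log2 fold changes ran from -0.48 to 0.47, with a median absolute value of 0.10. The lowest adjusted p, 0.0676, was shared by ERVB4_1-I_MM-int, an internal part of an ERVK element with 5 windows, and RLTR45 with 6. ERVB4_1-I_MM-int had 47, 57 and 42 tags in the knockout, against 65, 94 and 172 in wild type, a log2 fold change of -1.38 (SE 0.32). Wild-type replicate 3 was the high library, and without it the log2 fold change was -0.96 (adjusted p = 0.822). It was called with DESeq2 (adjusted p = 0.0383), total-tag scaling (0.00892) and no filter (0.0156), and not without overlapping windows (0.719). RLTR45 had 214, 321 and 266 tags in the knockout, against 89, 127 and 167 in wild type, a log2 fold change of 0.86 (SE 0.20), with 51.1% of its tags in the window near Olfr111. It was called with total-tag scaling (adjusted p = 0.0324) and no filter (0.0156), and not with DESeq2 (0.051) or without wild-type replicate 1 (0.453).

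As a class the LTR windows took shares of the distal H3K27ac tags that overlapped between genotypes. The share of tags in intron and intergenic windows that lay on LTR windows was 5.80%, 5.80% and 5.83% in the knockout H3K27ac libraries and 5.84%, 5.75% and 5.79% in wild type. The means were 5.81% ± 0.0141 and 5.79% ± 0.0482 (SD, n = 3 each), which overlap (exact permutation test, 2-sided, p = 0.7, where 0.1 is the smallest p that 3 against 3 libraries allow). By family ERVL-MaLR had 3.52% ± 0.00875 in the knockout, against 3.46% ± 0.0537 in wild type, and ERVK had 1.14% ± 0.0127 and 1.17% ± 0.00478. The 3 knockout values of ERVK, 1.13%, 1.14% and 1.15%, lay below the wild-type values of 1.16%, 1.17% and 1.17%, the smallest exact permutation p the design allows (0.1, adjusted over the 4 families 0.4). The genotypes overlapped in ERVK over all library tags and with satellite and simple repeat windows, overlapping windows or the top 1% of windows left out, and the difference ran from -0.0531 to -0.00958 percentage points over these settings. ERVL and ERV1 overlapped between genotypes, at 0.686% and 0.41% in the knockout, against 0.699% and 0.414% in wild type.

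Against input the share turned with the denominator. It was 5.80% ± 0.0332 over the 6 H3K27ac libraries and 3.98% ± 0.212 over the 6 input libraries, higher in every H3K27ac library (exact permutation test, 2-sided, p = 0.00216, the smallest that 6 against 6 allow). With satellite and simple repeat windows left out of the denominator it was 6.12% ± 0.0306 in H3K27ac and 7.76% ± 0.137 in input, lower in every H3K27ac library (exact permutation test, p = 0.00216). All 4 families turned in the same way. With overlapping windows left out instead, the share was 6.99% ± 0.0485 in H3K27ac and 6.88% ± 0.15 in input, and the difference did not pass (exact permutation test, p = 0.134). In the input libraries alone the share was 3.81% ± 0.148 in the knockout, against 4.15% ± 0.0324 in wild type (SD, n = 3 each; exact permutation test, p = 0.1), and without satellite and simple repeat windows 7.86% ± 0.0688 and 7.67% ± 0.129 (p = 0.2 in the same exact test).

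**Figure D5:**
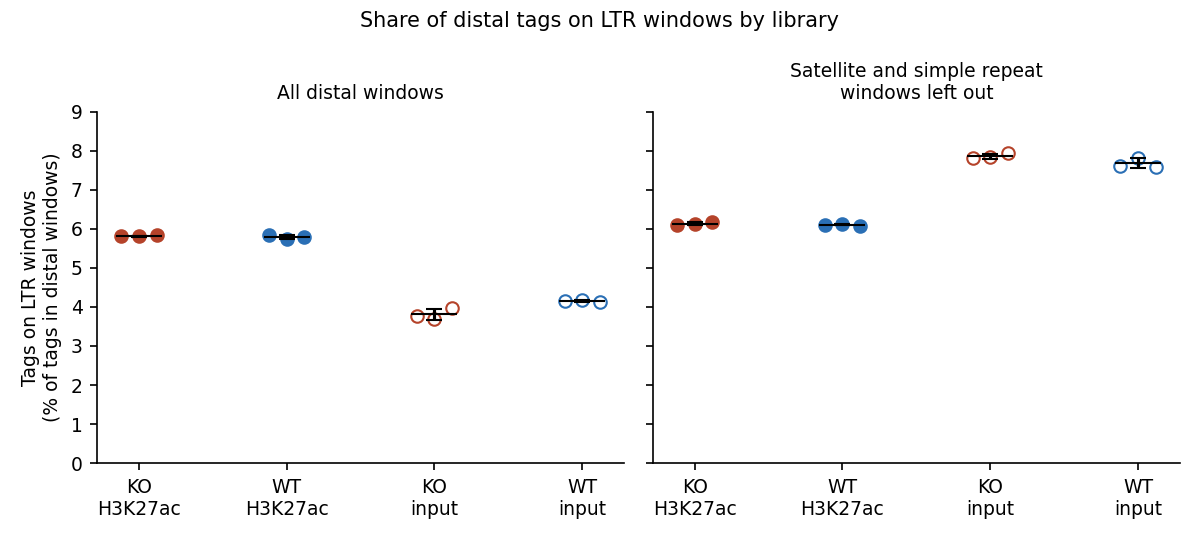
Percent of the tags in distal windows that lay on LTR windows in each library, knockout left of wild type, with all distal windows as denominator (left panel) and with satellite and simple repeat windows left out (right panel), bars showing mean and SD of 3 libraries. The H3K27ac libraries of both genotypes lie together at 5.75% to 5.84% in the left panel, above the input libraries, and the input libraries lie above them in the right panel.

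Genes that act on LTR elements were looked at through their promoter windows. Of 36 genes of LTR silencing (such as Trim28, Setdb1 and the DNA methyltransferases) 25 had tested promoter windows, 39 windows in all, of which 0 were called; at an unadjusted p under 0.05 stood 1 of 4 tested windows of Dnmt3a, a DNA methyltransferase gene (log2 fold change 0.79, SE 0.34), and 1 of 2 of Cbx3, which encodes the heterochromatin protein HP1 gamma (-0.67, SE 0.32). The other windows of Dnmt3a had -0.39, 0.25 and -0.29, the last overlapping the first named, and the other window of Cbx3 had -0.00. The median over the 39 windows was -0.08, beside 0.00 over all windows. Of all windows tested 0.0595% were called and 4.69% had an unadjusted p under 0.05, and of promoter windows 3.79% had such a p. Of 28 genes of retroelement restriction and nucleic acid sensing 19 were tested through 33 windows, with 0 called, 0 at an unadjusted p under 0.05 and a median of -0.05. Of 28 interferon response genes 17 were tested through 25 windows, with 0 called and a median of -0.04. The window at an unadjusted p under 0.05 was that of Isg15, a ubiquitin-like interferon-induced protein, with 36, 35 and 27 tags in the knockout, against 36, 86 and 58 in wild type (log2 fold change -1.08, SE 0.38, adjusted p = 0.892). The 56 tested promoter windows of homeostatic microglia genes had a median of -0.10, with 0 called.

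LTR windows nearest to genes of these lists overlapped between genotypes or did not pass the test. An RLTR49 window 13219 bp from Morc3, which silences ERVK elements, had 94, 69 and 55 tags in the knockout, against 105, 76 and 84 in wild type. Windows nearest Tlr3 (RLTR30D2_MM) and Tlr7 (MLT1J-int), receptors of double-stranded and single-stranded RNA, had 99, 52 and 45 and 50, 50 and 27 tags in the knockout, against 35, 45 and 60 and 39, 50 and 26 in wild type. The RMER19B and ORR1F windows in introns of Aim2, a sensor of cytosolic DNA, stood at 7.69 and 8.28 times input in knockout microglia and at 9.61 and 6.31 times in wild-type microglia. Their H3K27ac log2 fold changes were 0.31 (SE 0.39) and 0.14 (SE 0.40). At the RLTR11A window in the intron of Slfn2 the tags were 27, 40 and 60 in the knockout, against 41, 62 and 61 in wild type, with a log2 fold change of -0.55 (SE 0.38). No window of this group had an unadjusted p under 0.05, beside 4.69% of all windows tested.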

How the data were processed

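The values are raw tag counts per window and library that the authors deposited; per the file headers they were counted with HOMER on mm10, unadjusted, in windows of 1000 bp on merged accessible sites of both genotypes, and the headers give each library's total tags. Per the submitters' processing notes, HOMER and DESeq2 were used on mm10. The aligner, its treatment of reads that map to several copies, and duplicate handling are not stated in any source at hand, and repeats are where such choices matter most. A normalized table of the same counts was not used. 0 further columns of unknown samples were present.

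Groups came from genotype, antibody and title. Genotypes were compared with edgeR 4.0.16 (R 4.3.3): TMM, filterByExpr, glmQLFit and glmQLFTest on all windows, and on tags summed per repeat name, with Benjamini-Hochberg adjustment over the whole table and a threshold of 0.05 ("called"). H3K27ac was set against input with total-tag library sizes and genotype as covariate. The SE was computed as the absolute log2 ratio divided by the root of the F statistic. Ratios to input use group mean CPM (per library total) plus 0.5. Shares per library were compared with exact permutation tests. DESeq2 1.42.0, other scalings, no filter, a replicate block and leaving out each library were alternatives. The scripts were tested on simulated data. Counting error is the floor of precision, since no source names molecular identifiers and tags may not be independent molecules.

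Windows named are those called, the 10 lowest p at or above median abundance with non-overlapping genotypes (1 per gene), the 3 with most H3K27ac per family of 100 or more windows, and up to 5 nearest a gene of each of 3 lists; others are said to be chosen later. Repeat names with 10 or more windows were ranked by H3K27ac over input. The members and lists were chosen with earlier results of these data known. Windows labelled as uncertain LTR class (2) were left out.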

Additional observations from a re-analysis of the deposited data

How the results depend on the processing

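The number of LTR windows called between genotypes was 2; it was 6 with DESeq2, 1 with total-tag scaling, 0 with a replicate block, and 0 to 1 with 1 library left out. The 2 windows were among the 6 of DESeq2 and among the 3 called with no filter. LTR repeat names called were 0; DESeq2 gave 1, total-tag scaling 2, no filter 2, the replicate block 3 and leaving out 1 library 0 to 2. For H3K27ac against input TMM factors gave 224 LTR windows higher and 372 lower, beside 8299 and 4631 of all 40663 windows tested. By repeat name they gave 79 LTR names higher and 104 lower, beside 183 and 174 of all 618 names. The lower LTR windows numbered 95 without the filter and 5 without overlapping windows. The lower LTR names numbered 2 with DESeq2 and 2 to 5 with 1 library left out. With TMM factors LTR41B, RLTR14, LTR41, MLT1I and LTR50 turned to -1.35, -1.10, -0.91, -0.76 and -0.70 on the log2 scale.

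For the LTR share in H3K27ac, knockout minus wild type was 0.0175 percentage points, -0.00267 without overlapping windows and -0.00653 to 0.0417 with 1 library left out; for ERV1 the last range was -0.0143 to 0.00427. For H3K27ac minus input the difference of 1.82 points became 0.109 without overlapping windows (exact permutation p = 0.134), -1.65 without satellite and simple repeat windows and -1.40 without the top 1% of windows. In the same 3 settings ERVL-MaLR had 0.00723, -1.05 and -0.905, ERVL -0.0346, -0.191 and -0.165, and ERV1 0.0148, -0.105 and -0.0736; ERVK had -0.274 and -0.232 in the last 2. In input, knockout minus wild type (-0.345) became 0.184 and 0.163 in these 2. The causes of these changes were not tested. Under the replicate block RMER6B and MTEa lost their calls (adjusted p = 0.0924 for each, edgeR) and RLTR45 and ERVB4_1-I_MM-int summed gained theirs (0.00938 and 0.0113), while no other named value crossed the threshold. The libraries share only a number: same-numbered ones did not deviate together (correlations of -0.00073 to 0.0044 over 39769 windows).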
